A study of Mus musculus with 6 samples.

Results

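The basement membrane genes described here are 34 genes picked by symbol: the collagens IV, XV and XVIII, the laminin chains, the nidogens, perlecan (*Hspg2*), agrin, the Fraser complex and their partners. They were read out of a count table of 53819 listed genes, and all 34 had a count in at least 1 library. The libraries were bulk RNA-seq of the flexor digitorum longus (FDL) tendon of the mouse hind paw, cut and repaired in animals 10 to 12 weeks old of both sexes and harvested 28 days later, and each library came from 1 tendon. The DTRScxLin group (Scx-Cre+; DTR F/+, n = 3) carried the diphtheria toxin receptor in cells with a history of expressing the tendon transcription factor *Scx*, and the littermate WT group (Scx-Cre-; DTR F/+, n = 3) carried the same silent receptor allele without Cre. Both groups received 5 daily injections of diphtheria toxin (DT) from D14 to D18 post-surgery. The Cre is not inducible, so the lineage it marks is a broad one and includes cells labelled long before the injury. Sample titles give the time as D28 post-depletion, but the study's methods, followed here, give D28 post-surgery.

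Basement membranes are thin sheets of matrix that underlie epithelium and endothelium and wrap muscle fibres, Schwann cells and fat cells. Laminin trimers polymerise on the cell surface and bind integrins and dystroglycan, a second network of collagen IV trimers is laid over them, and nidogens and perlecan tie the networks together. In tendon they are known from the vessels, the nerves, the epitenon sheath that surrounds the tendon, and the junction with muscle.

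The 6 collagen IV genes lie in 3 head-to-head pairs. They matter below because the partners of each pair shared a fitted direction, higher for *Col4a1* and *Col4a2* and lower for *Col4a3* to *Col4a6*. *Col4a1* and *Col4a2* overlapped between the groups, so their direction is uncertain. The stretches at the shared starts are shown from RefSeq promoter windows (GRCm38.p6), which had an entry for 24 of the 34 genes, with exons taken from GENCODE vM21. *Col4a1* and *Col4a2* start so close together that their first exons overlap on opposite strands over 22 bases at chr8:11312805-11312826. Between the starts of *Col4a3* and *Col4a4* lie 71 bases, which hold no exon, at chr1:82586850-82586920. *Col4a5* and *Col4a6* start 1342 bases apart on chromosome X, and the exon-free stretches just before each are given. Capitals mark the letters CCAAT and GGGCGG, read on either strand.
Col4a1/Col4a2 overlap, + strand: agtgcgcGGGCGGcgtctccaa
Col4a3/Col4a4 interval, − strand: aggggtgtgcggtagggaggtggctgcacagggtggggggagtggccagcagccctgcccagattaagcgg
Col4a5 upstream, + strand, chrX:141475169-141475384: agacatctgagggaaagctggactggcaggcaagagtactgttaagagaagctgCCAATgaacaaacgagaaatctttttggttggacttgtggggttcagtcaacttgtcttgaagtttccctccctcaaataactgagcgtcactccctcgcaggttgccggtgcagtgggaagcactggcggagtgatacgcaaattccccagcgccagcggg
Col4a6 upstream, − strand, chrX:141474077-141474326: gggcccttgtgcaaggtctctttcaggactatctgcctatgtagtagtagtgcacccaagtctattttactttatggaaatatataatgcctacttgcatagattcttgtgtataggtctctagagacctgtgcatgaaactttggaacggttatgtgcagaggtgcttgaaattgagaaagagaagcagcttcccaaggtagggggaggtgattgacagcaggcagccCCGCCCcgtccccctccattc
On both strands of the 250 bases before each start, the letters CCAAT were found in 33.8% of all 32851 windows and in 40.6% of the 32 windows of the 24 genes. The letters GGGCGG were found in 32.7% of all windows and 46.9% of the members' windows. The TATA box letters TATAAA were found in 12.4% and 0%, and the E-box letters CANNTG, which basic helix-loop-helix factors such as *Scx* bind, in 66.2% and 56.2%. The interval between *Col4a3* and *Col4a4* held none of these motifs. Without the strand setting of the counting, reads in the 22 shared bases cannot be given to *Col4a1* or *Col4a2*, although the overlap is short beside exon lengths of 7464 and 6619 bases.

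DTRScxLin and WT tendons were compared to ask which basement membrane genes differ in the healing tendon after the depletion. Values are counts scaled with TMM factors to the mean library size (normalized counts), and a gene without overlap is one in which each DTRScxLin library lay above, or each lay below, every WT library. *Lama4*, *Lamc1*, *Nid1*, *Pxdn* and *Hmcn1* were above in every DTRScxLin library, by 1.25 to 1.37 times, as was *Frem1*, by 2.09 times. The collagen IV genes *Col4a3*, *Col4a4*, *Col4a5* and *Col4a6* and *Lama5*, *Egflam* and *Hmcn2* were below in each. Of the 33 genes that passed the filter on low counts, 13 (39.4%) had no overlap, against 16.8% of all 17496 genes tested. A total of 6 were above (background 8.96%) and 7 below (background 7.85%).

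In edgeR's quasi-likelihood test with Benjamini-Hochberg adjustment over all genes, 0 of the 33 passed an adjusted p of 0.05 (background 0.00%), with adjusted p-values from 0.260 upwards. With the replicate number as a block the count was also 0 (background 0.00572%), and 13 members had an unadjusted p under 0.05 (background 10.8%). Without the block, 12 (36.4%) had an unadjusted p under 0.05, of which 6 were higher and 6 lower, and the background was 11.0% in all, 5.52% higher and 5.45% lower. DESeq2's Wald test called 5 of the 33 at an adjusted p under 0.05 (background 2.65%), namely *Frem1* and *Lama4* higher and *Col4a3*, *Col4a6* and *Hmcn2* lower. The study also ran DESeq2 on these same libraries, with the same adjusted p threshold. No DESeq2 call given here, for members or for other genes and in either direction, is therefore independent evidence. *Lama4*, in the text of the study, and *Frem1*, in a heat map, are among the matrix genes that it selected. The fitted log2 fold change of DTRScxLin over WT (log2FC, given with its standard error, SE) was positive in 15 of the 33 (background 51.5%), and its median was -0.01 beside 0.01 over all genes tested.

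**Figure D1:**
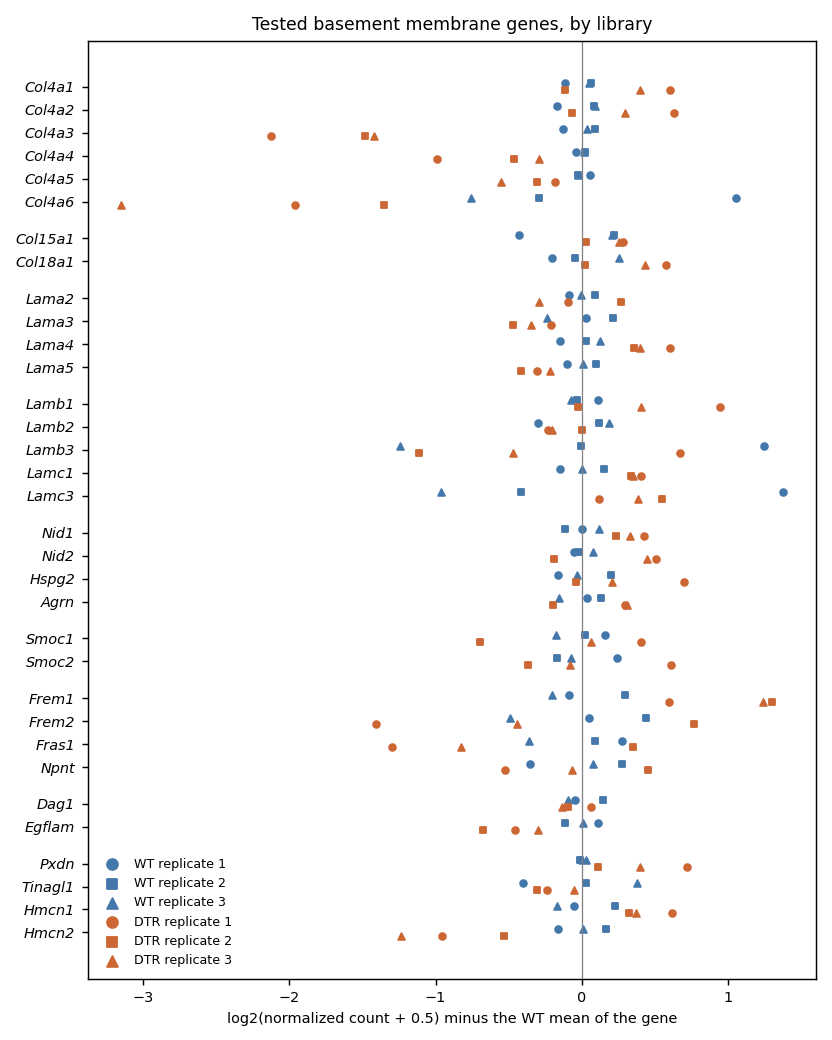
Each row is 1 tested gene and each point 1 library, as log2 of the normalized count plus 0.5 minus the gene's WT mean, with WT in blue and DTRScxLin (DTR) in orange. *Col4a3*, *Col4a6* and *Hmcn2* lie left of all WT points, *Frem1* and *Lama4* right of them, and DTRScxLin replicate 2 (orange squares) often sits with the WT libraries.

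The libraries held 42744138 to 48854310 counts on genes and differed in transcripts of other tissues. Skeletal muscle markers (14 genes, all fitted lower) took 1.58% to 2.20% of the counts in WT, 0.265% and 0.506% in DTRScxLin replicates 1 and 3, and 1.94% in DTRScxLin replicate 2. A keratinocyte list (10 genes) took 0.278% and 0.174% in WT replicates 1 and 2, and 0.0252% in DTRScxLin replicate 3. The remaining libraries had 0.000456% to 0.000927%, and there *Krt5*, *Krt15* and *Dsg3* were at or near 0. Endothelial markers (12 genes, 10 fitted lower) took 0.0844% to 0.111% in WT and 0.0853% to 0.101% in DTRScxLin tendons, and all 12 overlapped. Smooth muscle and pericyte markers (10 genes, 9 fitted lower, 9 overlapping) took 0.194% to 0.238% in WT and 0.137% to 0.184% in DTRScxLin tendons. Schwann cell markers (9 genes, 7 lower) took 0.0628% to 0.115% and 0.0454% to 0.0800%. Adipocyte markers (7 genes, all fitted lower, 6 without overlap) took 0.0141% to 0.0219% and 0.00868% to 0.0153%, and macrophage markers 0.196% to 0.226% and 0.190% to 0.221%. Tendon cell markers (7 genes, 5 fitted higher) were abundant in every library, at 1.20% to 1.48% in WT and 1.56% to 1.69% in DTRScxLin tendons. Of these 7 genes, 3 were above WT in each DTRScxLin library, *Scx* among them (1.31 times, adjusted p = 0.371 in edgeR's test), and 1 was below. The study states that the efficiency of the depletion could not be quantified. *Xist* had at most 4 counts in WT replicates 1 and 3 and DTRScxLin replicate 1 and at least 49303 in the others, so the sexes were split unevenly. The part of these differences in the results below was not tested, and in whole tendon a smaller number of cells of 1 type cannot be told apart from less RNA per cell.

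**Figure D2:**
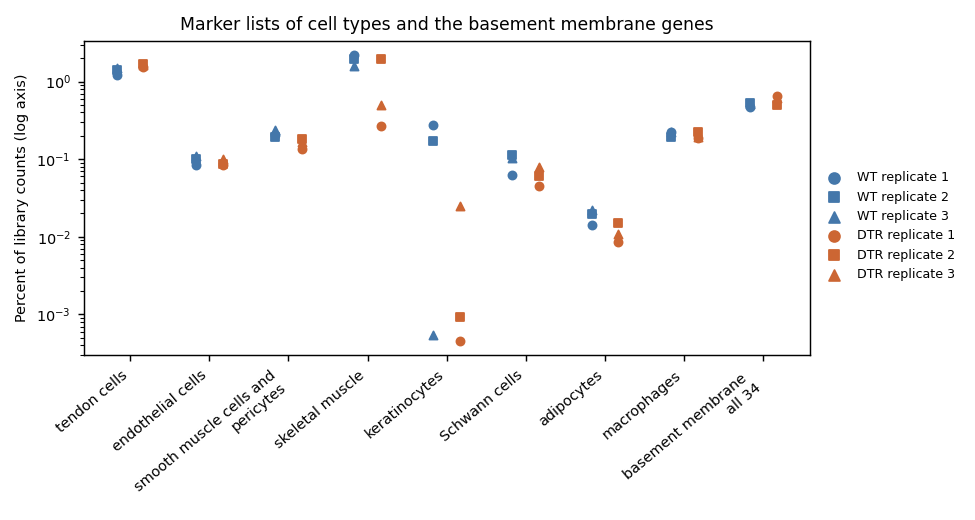
Percent of each library's counts on 8 marker lists and on the 34 basement membrane genes together, on a log axis, with 1 point per library. Skeletal muscle and keratinocyte lists spread most, and the basement membrane genes took between 0.464% and 0.661% of every library.

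Together the 34 genes took 0.464%, 0.530% and 0.512% of the WT libraries (replicates 1 to 3) and 0.661%, 0.497% and 0.613% of the DTRScxLin libraries, so that the groups overlapped through DTRScxLin replicate 2. To compare levels between genes, normalized counts were divided by the exon length in kilobases from GENCODE vM21, which listed all 34. On this scale *Col4a1* (3824 ± 254 per kb in WT, SD, n = 3) and *Col4a2* (3651 ± 358) led, followed by *Nid1* (3045 ± 246) and *Lamc1* (2500 ± 257). *Col4a1*, *Col4a2* and *Nid1* overlapped with their neighbours in this order within WT, while *Lamc1* lay below *Nid1* and above the next gene in each WT library. In the order of WT means, 24 of the 33 neighbouring pairs overlapped. A broad middle group from *Dag1* (1756 ± 154) to *Lama4* (956 ± 90.4) held *Lamb1* and *Lamb2*, perlecan, *Smoc2*, collagens XV and XVIII and *Pxdn*.

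The low end held 12 genes under 100 per kb in WT. They were *Egflam*, *Col4a5*, *Lama3*, *Col4a4*, *Frem2*, *Fras1*, *Lamb3*, *Col4a3*, *Col4a6*, *Frem1*, *Lamc3* and *Lama1*, the last at 0.299 ± 0.292 per kb. *Lama1*, the α chain of early embryonic laminin, had at most 6 counts in any library and was not tested. Among the α chains, the order of WT levels was *Lama4*, *Lama2* (291 ± 18.2 per kb), *Lama5* (188 ± 12.8), *Lama3* (40.2 ± 6.27) and *Lama1*, with no overlap between neighbours. The same order of the α chains was found in DTRScxLin tendons.

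**Figure D3:**
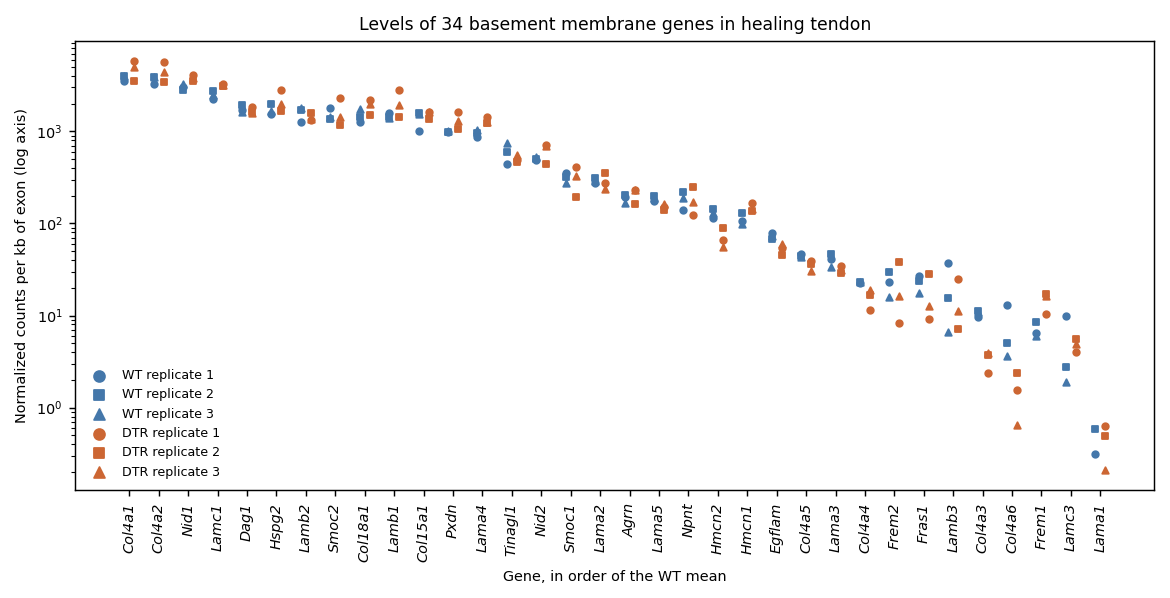
Normalized counts per kb of exon on a log axis for the 34 genes in order of their WT mean, with WT in blue and DTRScxLin (DTR) in orange and 1 point per library. WT means run from 3824 for *Col4a1* to 0.299 for *Lama1*, whose WT replicate 3 was at 0 and is not drawn.

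Collagen IV forms the covalent network of every basement membrane. Its α1 and α2 chains are found in nearly all of them, while α3, α4 and α5 form the network of the kidney filter and a few other sites, and α5 and α6 one of skin and smooth muscle. *Col4a1* had 26366, 29800 and 29463 normalized counts across WT replicates 1 to 3, against 43186, 26344 and 37451 in DTRScxLin replicates 1 to 3. The groups overlapped because DTRScxLin replicate 2 was the lowest of the 6, while replicates 1 and 3 were above all WT tendons. The log2FC was 0.32 with a SE of 0.19 (adjusted p = 0.535 from edgeR's test). *Col4a2*, its partner across the shared start, had 21429, 25471 and 25595 in WT and 37217, 22951 and 29473 in DTRScxLin tendons, and DTRScxLin replicate 2 was within the WT range (log2FC 0.31, SE 0.18). The ratio of *Col4a1* to *Col4a2* in normalized counts per kb of exon varied little, at 1.09, 1.04 and 1.02 in WT and 1.03, 1.02 and 1.13 in DTRScxLin tendons.

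*Col4a3* went the other way, with 96.4, 112 and 108 normalized counts across WT replicates 1 to 3, against 23.7, 37.3 and 39.0 in DTRScxLin replicates 1 to 3. Even the lowest WT library was well above the highest DTRScxLin library, and replicate 2 did not stand apart from the others of its group. *Col4a3* had 0.317 times the WT level (log2FC -1.66, SE 0.29) and the smallest adjusted p of the 33 genes, 0.260 in edgeR's test and 0.000262 in DESeq2's. *Col4a4*, which shares its start region with *Col4a3*, had 238, 249 and 247 in WT and 123, 177 and 199 in DTRScxLin tendons, below in each library by less (log2FC -0.56, SE 0.22, adjusted p = 0.441 in edgeR's test). The levels of this pair differed in their ratio between the groups. The ratio of *Col4a3* to *Col4a4* (per kb) was 0.430, 0.480 and 0.465 in WT and 0.206, 0.224 and 0.209 in DTRScxLin tendons. These ratios were chosen after the values were seen and were given no test.

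On the X chromosome, *Col4a5* had 312, 295 and 294 normalized counts in WT, against 264, 243 and 204 in DTRScxLin tendons, with every DTRScxLin library below (log2FC -0.34, SE 0.16, adjusted p = 0.483 in edgeR's test). *Col4a6* had 104, 40.5 and 29.1 in WT and 12.4, 19.1 and 5.14 in DTRScxLin tendons. The WT libraries of *Col4a6* differed several-fold among themselves, and the highest, replicate 1, was also the library with the most keratinocyte transcripts. DTRScxLin replicate 3, with the most keratinocyte transcripts of its group, had the lowest *Col4a6*. The log2FC of *Col4a6* was -2.22 with a SE of 0.64 (adjusted p = 0.352 in edgeR's test, 0.0321 in DESeq2's), and without WT replicate 1 it was -1.50. The part of the keratinocyte transcripts in it was not tested. As a share of the members' summed level per kb, *Col4a3* to *Col4a6* made up 0.274% to 0.344% in WT and 0.138% to 0.205% in DTRScxLin tendons, while *Col4a1* and *Col4a2* made up 24.3% to 28.8% in every library. The lower collagen IV genes stood beside a smooth muscle and pericyte list whose share was lower in each DTRScxLin library. Of that list's 10 genes, 9 overlapped between the groups. Its abundant gene *Des* had 6993, 30236 and 12912 normalized counts in DTRScxLin replicates 1 to 3, the order of their skeletal muscle share. Adipocyte and Schwann cell lists also stood beside these collagen IV genes, with shares that overlapped. All 7 adipocyte genes were fitted lower, 6 of them below WT in each DTRScxLin library, and 7 of 9 Schwann cell genes were fitted lower. The part of these lists was not tested.

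**Figure D4:**
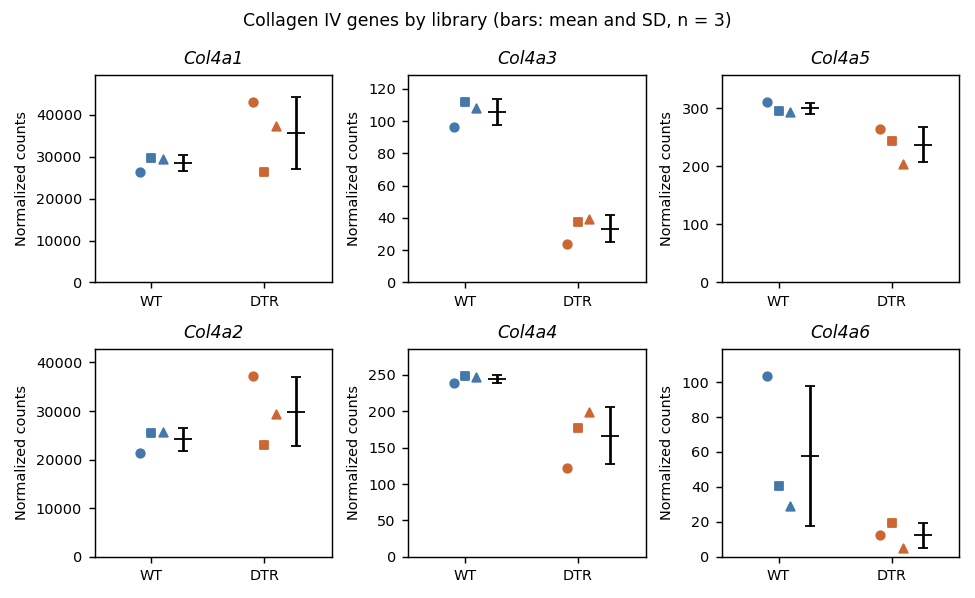
Normalized counts of the 6 collagen IV genes, with 1 point per library (circle, square and triangle for replicates 1 to 3), the mean and the SD, each axis starting at 0. *Col4a1* and *Col4a2* overlap between WT and DTRScxLin (DTR) tendons, and *Col4a3* to *Col4a6* are lower in each DTRScxLin library.

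Laminins are trimers of an α, a β and a γ chain, and the α chain sets which receptors they bind. *Lama4*, the α chain of vascular endothelium and fat, had 10368, 11710 and 12530 normalized counts in WT, against 17443, 14717 and 15167 in DTRScxLin tendons. Each DTRScxLin library was higher, and the fold of 1.37 (log2FC 0.45, SE 0.12) had an adjusted p of 0.317 in edgeR's test and 0.0214 in DESeq2's. *Lama5*, the other vascular α chain, had 1992, 2284 and 2149 in WT and 1727, 1602 and 1842 in DTRScxLin tendons, lower in each library (log2FC -0.31, SE 0.09, adjusted p = 0.353 in edgeR's test). The ratio of *Lama4* to *Lama5* per kb, chosen after the values were seen, was 4.91, 4.84 and 5.50 in WT and 9.53, 8.67 and 7.77 in DTRScxLin tendons. These ratios were given no test.

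*Lama2*, the α chain of muscle and Schwann cell basement membranes, had 4478, 5070 and 4734 normalized counts in WT, against 4453, 5732 and 3882 in DTRScxLin tendons. DTRScxLin replicate 2, the library of its group with the most muscle transcripts, was the highest of all 6. WT replicate 1, the WT library with the most muscle transcripts, had the lowest *Lama2* of its group. The log2FC was -0.02 (SE 0.14) and changed sign with single libraries left out. *Lama3*, the α chain of epithelia, had 432 ± 67.3 in WT and 339 ± 31.1 in DTRScxLin tendons (SD, n = 3 each), with overlap. Its partner in epithelial laminin, *Lamb3*, had 43.6 to 248 in WT and 47.8 to 166 in DTRScxLin tendons, a spread within each group that exceeded the difference between them.

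*Lamc1* encodes the γ chain of most laminins and was among the most regular members. It had 18587, 22835 and 20614 normalized counts in WT, against 27230, 25967 and 26267 in DTRScxLin tendons. All DTRScxLin libraries, replicate 2 included, were higher and close together (log2FC 0.36, SE 0.11, adjusted p = 0.375 in edgeR's test, 0.0669 in DESeq2's). *Lamb1*, the widespread β chain, had 15776, 14229 and 13850 in WT and 28086, 14345 and 19354 in DTRScxLin tendons, so that replicate 2 lay within the WT range and replicate 1 far above it (log2FC 0.49, SE 0.23, adjusted p = 0.478). *Lamb2*, the β chain of neuromuscular and mature vascular laminins, had 7743, 10374 and 10844 in WT and 8122, 9557 and 8274 in DTRScxLin tendons and overlapped (log2FC -0.16, SE 0.14). *Lamc3* had 29.4 ± 26.5 in WT and 29.3 ± 4.39 in DTRScxLin tendons (SD, n = 3 each).

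The nidogens bind laminin γ1 and collagen IV and bridge the laminin and collagen networks. *Nid1* had 21108, 19448 and 22867 normalized counts in WT, against 28250, 24758 and 26513 in DTRScxLin tendons, with each DTRScxLin library higher (log2FC 0.33, SE 0.11, adjusted p = 0.403 in edgeR's test). *Nid2* had 2515, 2571 and 2750 in WT and 3713, 2290 and 3561 in DTRScxLin tendons. Here replicates 1 and 3 were well above WT and replicate 2 was below it, and the log2FC of 0.29 (SE 0.18, adjusted p = 0.564) became 0.48 (SE 0.09, adjusted p = 0.0353) when DTRScxLin replicate 2 was left out. In the heparan sulfate proteoglycans, too, DTRScxLin replicate 2 was lower than replicates 1 and 3. *Hspg2*, which encodes perlecan, had 21853, 28173 and 23880 in WT and 39838, 23832 and 28305 in DTRScxLin tendons, with replicate 2 inside the WT range and replicate 3 only just above it (log2FC 0.32, SE 0.20, adjusted p = 0.577). *Agrn*, known for clustering acetylcholine receptors at the nerve-muscle synapse, had 1756 ± 175 in WT and 1948 ± 365 in DTRScxLin tendons (SD, n = 3 each).

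Collagens XV and XVIII carry glycosaminoglycan chains and anchor basement membranes to the matrix beneath, and collagen XVIII yields endostatin. *Col15a1* had 8721 ± 2057 and 9765 ± 919 normalized counts in WT, against DTRScxLin tendons, and *Col18a1* 10437 ± 1705 and 13296 ± 2520 (SD, n = 3 each). Both overlapped between the groups, with log2FC values of 0.16 (SE 0.18) and 0.35 (SE 0.17).

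FRAS1, FREM1 and FREM2 form the Fraser complex, which holds epithelium to connective tissue in the embryo, and nephronectin is an integrin α8β1 ligand linked to it. *Frem1* had 90.3, 118 and 83.1 normalized counts in WT, against 145, 237 and 227 in DTRScxLin tendons. It had the largest positive log2FC of the 33 genes, 1.06 with a SE of 0.27 (adjusted p = 0.307 in edgeR's test, 0.0139 in DESeq2's), and DTRScxLin replicate 2 was its highest library. Its partners were not higher with it. *Fras1* had 308 to 479 in WT and 161, 506 and 223 in DTRScxLin replicates 1 to 3, and *Frem2* had 209 to 398 in WT and 110, 500 and 216.

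In both, replicate 2 was the highest of all 6 libraries and replicate 1 the lowest, and *Npnt* had the same extremes, with 1238 and 628 against 707 to 1095 in WT. This order of the DTRScxLin libraries matches that of their skeletal muscle share, at 0.265%, 1.94% and 0.506%, whose part was not tested. In WT replicates 1 to 3 that share was 2.20%, 1.95% and 1.58%. There *Fras1* had the same order, while *Frem2* and *Npnt* were highest in replicate 2, and *Npnt* was lowest in replicate 1. Without DTRScxLin replicate 2 *Fras1* had a log2FC of -1.07 (SE 0.26, adjusted p = 0.0797), against -0.44 (SE 0.44) with it. The matricellular proteins SMOC1 and SMOC2 bind calcium and locate to basement membranes. *Smoc1* had 1100 ± 129 in WT and 1089 ± 389 in DTRScxLin tendons, *Smoc2* 10587 ± 1611 and 11357 ± 4117 (SD, n = 3 each), and both were lowest in DTRScxLin replicate 2 and highest in DTRScxLin replicate 1.

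*Dag1* encodes dystroglycan, the laminin receptor that links basement membranes to the cytoskeleton, and it varied little, with 11165 ± 981 normalized counts in WT, against 10735 ± 795 in DTRScxLin tendons (SD, n = 3 each). *Egflam* encodes pikachurin, a dystroglycan ligand of the retina. It had 485, 416 and 452 in WT and 328, 281 and 366 in DTRScxLin tendons, and each DTRScxLin library was lower (log2FC -0.47, SE 0.15, adjusted p = 0.380 in edgeR's test).

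*Pxdn* encodes peroxidasin, the enzyme that makes the sulfilimine bonds between collagen IV trimers. It had 9386, 9381 and 9692 normalized counts in WT, against 15604, 10260 and 12506 in DTRScxLin tendons, a log2FC of 0.43 with a SE of 0.15 (adjusted p = 0.405 in edgeR's test). The WT libraries lay within a narrow range, DTRScxLin replicate 2 was just above it, and the order of the 3 DTRScxLin libraries was that of *Col4a1* and *Col4a2*. The hemicentins, very large proteins that connect neighbouring basement membranes, parted.

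*Hmcn1* had 2234, 2724 and 2065 in WT and 3570, 2908 and 3010 in DTRScxLin tendons, higher in each (log2FC 0.43, SE 0.13, adjusted p = 0.354). *Hmcn2* had 1858, 2331 and 2091 in WT and 1071, 1438 and 884 in DTRScxLin tendons, lower in each (log2FC -0.89, SE 0.18, adjusted p = 0.274 in edgeR's test, 0.000817 in DESeq2's). The ratio of *Hmcn1* to *Hmcn2* per kb, chosen after the values were seen, was 0.749 to 0.912 in WT and 1.53 to 2.58 in DTRScxLin tendons. *Tinagl1*, which encodes a matricellular protein of vessels, had 2597 ± 688 in WT and 2210 ± 206 in DTRScxLin tendons (SD, n = 3 each) and overlapped.

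Leaving out DTRScxLin replicate 2 moved the counts most. Without it 14 of the 33 genes were above (background 16.5%) and 9 below (background 17.2%), and 20 had an unadjusted p under 0.05 (background 16.6%). edgeR then called *Col4a3* (adjusted p = 0.0447) and *Hmcn2* (adjusted p = 0.0116) lower and *Nid2* higher, 3 of 33 beside a background of 3.02%. *Col4a1* had a log2FC of 0.50, *Col4a2* one of 0.47, *Lamb1* one of 0.70 and *Hspg2* one of 0.47, and none of these overlapped any more. Without DTRScxLin replicate 1, the highest library of these 4 genes, the values were 0.16, 0.11, 0.20 and 0.08 in the same order, and all overlapped. With any other library left out, 0 members passed edgeR's adjusted test (background 0.00%). At an unadjusted p under 0.05 there were then 9 without WT replicate 1 (background 7.51%), 9 without WT replicate 2 (background 5.57%), 13 without WT replicate 3 (background 13.1%), 9 without DTRScxLin replicate 1 (background 7.26%) and 11 without DTRScxLin replicate 3 (background 8.53%). Without WT replicate 1, 17 members had no overlap (background 25.7%). In these 5 fits 6 to 8 members were above (background 11.9% to 17.1%) and 7 to 9 below (background 10.4% to 16.9%). *Frem1* stayed between 0.94 and 1.25 and *Col4a3* between -1.78 and -1.47 with any 1 library left out.

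**Figure D5:**
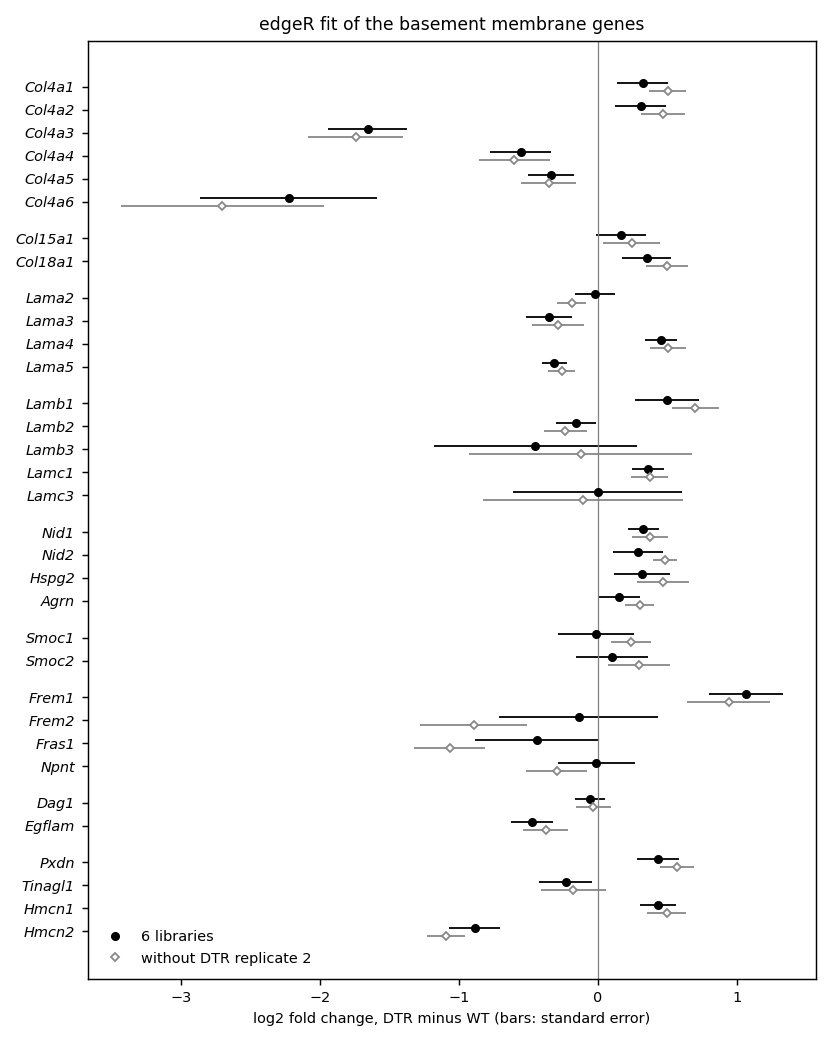
log2FC values of DTRScxLin (DTR) over WT with their SEs for the 33 tested genes, from 6 libraries (filled circles) and without DTRScxLin replicate 2 (open diamonds). *Nid2*, *Col4a1*, *Lamb1* and *Hspg2* lie further right and *Fras1* and *Frem2* further left without that library, while *Col4a3*, *Lama4*, *Lamc1* and *Nid1* move little.

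The other genes of the pathway were taken from 5 lists of 76 genes, of which 73 were tested. edgeR called 0 of them (background 0.00%), 6 were higher and 6 lower at an unadjusted p under 0.05 (background 5.52% and 5.45%), and DESeq2 called 1 higher and 3 lower (background 1.12% and 1.53%). Among 14 receptors 10 were fitted lower, with 5 lower (background 5.45%) and 0 higher (background 5.52%) at an unadjusted p under 0.05. *Itga7*, the α chain of the muscle laminin receptor, had 3809, 4048 and 4036 normalized counts in WT, against 2161, 3055 and 2749 in DTRScxLin tendons (log2FC -0.58, SE 0.13, adjusted p = 0.274 in edgeR's test, 0.00950 in DESeq2's). *Itga3*, a receptor chain for laminins with α3 and α5, had 683, 821 and 676 in WT and 548, 448 and 434 in DTRScxLin tendons (DESeq2 adjusted p = 0.0195). Both were below WT in each DTRScxLin library. *Ddr1*, a collagen receptor kinase, was also called by DESeq2 (log2FC -0.58, DESeq2 adjusted p = 0.0367), while *Bcam*, which binds laminin α5, and *Itgb4*, of hemidesmosomes, had log2FC values of -0.55 and -0.37 and were not. Beside these receptors, the skeletal muscle, keratinocyte, Schwann and adipocyte lists had most or all of their genes fitted lower, with shares that overlapped between the groups. The smooth muscle and pericyte list had 9 of 10 genes fitted lower. Its share did not overlap, at 0.194% to 0.238% in WT and 0.137% to 0.184% in DTRScxLin tendons. The part of these lists was not tested.

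Of 15 genes for folding and crosslinking collagen IV, 14 were fitted higher (background 51.5%), with a median log2FC of 0.26 beside 0.01 over all genes, and 4 were higher at an unadjusted p under 0.05 (background 5.52%). These were *P3h1* (0.44), *Crtap* (0.35), *Colgalt1* (0.28) and the collagen chaperone *Serpinh1* (0.45), none called by edgeR or DESeq2, and these proteins also serve the fibrillar collagens that dominate tendon. The 17 genes of the dystroglycan complex and its glycosylation gave 0 genes at an unadjusted p under 0.05, with a median of 0.01. In the degradation list of 14 genes, *Adamts1* (log2FC 0.48, SE 0.09, adjusted p = 0.268 in edgeR's test, 0.00799 in DESeq2's) and the metalloproteinase inhibitor *Timp1* (0.63, SE 0.22) had an unadjusted p under 0.05, and *Adamts1* is also among the genes that the study selected on these libraries. The 13 tested of 16 further basement membrane genes gave 1, *Papln*, with 24.9 to 51.8 normalized counts in WT, against 13.4 to 24.7 in DTRScxLin tendons.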

How the data were processed

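RNA-seq was analysed from 6 FDL tendon libraries, 3 WT and 3 DTRScxLin, made from 200 ng total RNA. Per the methods, the authors cleaned single-end reads with FastP and counted them per gene with featureCounts. The aligner, build, annotation and strand setting are not given in the sources used here. The deposited counts are whole numbers without normalization. In the deposited signal table each library's counts had been scaled by a single constant (0.973 to 1.06), and the submitters' processing notes name DESeq2 1.22.1. Groups and columns followed the labels.

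edgeR 4.0.16 in R 4.3.3 (TMM, filterByExpr, robust quasi-likelihood fit, genotype as the single term, Benjamini-Hochberg over 17496 genes, threshold 0.05) was the main test, with standard errors as the absolute log2 fold change over the square root of F. The scripts were tested on data simulated with edgeR's own dispersion trend, without scatter of single genes around it. DESeq2 made more false calls than edgeR there, in a setting built on edgeR's model. The simulation also held no library set apart like DTRScxLin replicate 2, so it cannot tell whether any DESeq2 call here is false. Alternatives were DESeq2 1.42.0, RLE or library size normalization, no filter, at least 10 counts in every library, a replicate block, each library left out, and limma 3.58.1 on log2(value + 1) of the deposited signal. Within-group chi-square values per degree of freedom were 40.1 to 209, so no pair of libraries looked like a duplicate. For abundant genes n = 3 limits the precision more than counting noise does. For genes with few counts, such as *Col4a6* with 12, 20 and 5 counts in DTRScxLin replicates 1 to 3, counting noise adds to it. The p-values set the difference between the groups against the spread between these tendons.

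The members and lists were chosen with earlier results of these data known. Values in every library are given for 10 core network genes and for every member with an unadjusted p under 0.05, a DESeq2 adjusted p under 0.05 or no overlap. Pathway genes are named only past one of those p-values.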

Additional observations from a re-analysis of the deposited data

How the results depend on the processing

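The number of members called was 0 in edgeR with RLE or library size normalization, with at least 10 counts in every library, with the replicate block and in limma on the deposited values. It was 5 in DESeq2 (background 2.65%), 1 (*Col4a3*) in edgeR without a filter on low counts, and 0 to 3 with 1 library left out (background 0.00% to 3.02%). Pathway genes called numbered 0 in edgeR, 4 in DESeq2, 2 without the filter and 0 to 3 with 1 library left out, beside the same backgrounds. For the fit without the filter no share over all genes was worked out, so its counts have no background. The count of members without overlap ranged from 13 to 23 with 1 library left out, and the highest came without DTRScxLin replicate 2. The median log2 fold change of the members stayed between -0.0401 and 0.0692, and that of *Lama2* ran from -0.19 to 0.10 with 1 library left out, the only one of the 20 members given in every library that changed sign. Over all genes, edgeR called 0 and, without DTRScxLin replicate 2, 544, while DESeq2 called 466. Same-numbered libraries did not deviate together (correlations across genes of -0.254, -0.205 and -0.732), so this check gave no sign of pairing by number. The deviations were taken from each group's mean, which ties the correlations together, so the check cannot exclude a batch shared by number. With the replicate as a block, 0 members were called (background 0.00572%), 13 had an unadjusted p under 0.05 (background 10.8%) and the median was -0.0389. The cause of these shifts was not tested.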
